A study of Homo sapiens with 30 samples.

Results

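The regions described here are H3K27me3 ChIP-seq peaks of HEK293T cells that were called in cells given a control antisense oligonucleotide and in neither of the lncRNA knockdowns. They were chosen by the peak calls alone. An NC peak on chromosomes 1 to 22 was a member, called a lost peak below, when it overlapped no peak of the ΔLINC00641 list and no peak of the ΔSETD5-AS1 list by 1 bp. This rule selected 24204 of the 73667 autosomal NC peaks, out of 102921 NC peaks on all chromosomes and contigs. The comparison set is the 29066 autosomal NC peaks that overlapped a peak in both knockdown lists, called kept peaks. A further 11416 NC peaks had no partner in ΔLINC00641 only and 8981 none in ΔSETD5-AS1 only.

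HEK293T is an established human cell line of embryonic kidney origin that expresses SV40 large T antigen. Cells of all groups were transfected with an antisense oligonucleotide (ASO) and crosslinked 48 h later. NC cells received the non-targeting ASOXNC23, ΔLINC00641 cells 1 ASO against LINC00641 and ΔSETD5-AS1 cells 1 ASO against SETD5-AS1, and the H3K9me3 lists came from NC and from cells given a mix of LINC00662 ASOs. Each group had 3 replicates of ChIP and 3 of input, which were merged before peaks were called against hg19. A missing peak therefore means that no position there passed the caller's threshold in the merged reads. It does not mean that the mark was at 0, and the values below carry no replicate error. No test between the groups could be made, and each comparison describes the pooled lists.

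H3K27me3 is placed by the EZH2-containing Polycomb repressive complex 2 (PRC2) and is bound by CBX proteins of Polycomb repressive complex 1. It lies over silent developmental genes, often at CpG-rich promoters, and also forms broad, low-level domains over silent gene bodies and intergenic DNA. H3K9me3 is the other main repressive histone mark and is typical of repeats and of clusters of zinc finger genes.

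The ASOs that define the knockdowns are given first, 5′ to 3′, because every lost peak is defined by their use.
LINC00641-ASO-2: gatagtggtatagtaactgg
SETD5-AS1-ASO-1: atcaatgaggatgtcatcac
ASOXNC23: ttctccgaacgtgtcacgtt
The LINC00641 ASO matched 1 place on chromosomes 1 to 22, chr14:21668698-21668717 (hg19), in an exon of LINC00641, on the strand that is read into this RNA. The SETD5-AS1 ASO matched 1 place, chr3:9432018-9432037, in an exon of the gene annotated in GENCODE 44 as THUMPD3-AS1, a newer name of SETD5-AS1. ASOXNC23 had no exact match on these chromosomes. The nearest lost peak was 280239 bp from the LINC00641 site and 982780 bp from the SETD5-AS1 site. The nearest NC peak of any kind was 131059 and 143170 bp away, so neither target held an NC peak that could be lost.

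Sequences of a few of the strongest lost peaks are printed next. They were picked separately at protein-coding promoters, where 1.63% of lost peaks lay, and outside promoters, so they do not stand for the members as a whole. The 200 bases centred on the summit are printed from the plus strand of hg19 with each CpG in capitals, first for 2 of the strongest lost peaks with a summit within 1 kb of a protein-coding transcription start site and a local input at most 2 times the genome-wide level.
OR10A6 chr11:7953620-7953819: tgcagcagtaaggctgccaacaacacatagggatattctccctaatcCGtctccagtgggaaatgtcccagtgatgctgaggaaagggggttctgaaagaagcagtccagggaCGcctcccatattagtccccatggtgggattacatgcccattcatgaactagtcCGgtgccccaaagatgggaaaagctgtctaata
SGPP2 chr2:223289844-223290043: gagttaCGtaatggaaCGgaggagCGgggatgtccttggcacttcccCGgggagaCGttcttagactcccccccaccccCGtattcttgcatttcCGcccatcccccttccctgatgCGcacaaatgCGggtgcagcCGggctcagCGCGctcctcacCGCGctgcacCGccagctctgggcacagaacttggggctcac
OR10A6 encodes an olfactory receptor and SGPP2 a sphingosine-1-phosphate phosphatase. These windows held 3 and 15 CpGs and had a GC content of 50.5% and 64.0%. Windows of 3 of the strongest lost peaks outside promoters follow, all of them intergenic.
intergenic chr22:16867143-16867342: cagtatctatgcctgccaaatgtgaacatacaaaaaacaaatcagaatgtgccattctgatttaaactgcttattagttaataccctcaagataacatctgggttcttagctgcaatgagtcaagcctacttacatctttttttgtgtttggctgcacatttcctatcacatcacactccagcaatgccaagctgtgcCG
intergenic chr9:69788339-69788538: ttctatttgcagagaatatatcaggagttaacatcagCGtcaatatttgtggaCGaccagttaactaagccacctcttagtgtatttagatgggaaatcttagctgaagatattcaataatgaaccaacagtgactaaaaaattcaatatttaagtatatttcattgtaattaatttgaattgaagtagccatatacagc
intergenic chr16:33847040-33847239: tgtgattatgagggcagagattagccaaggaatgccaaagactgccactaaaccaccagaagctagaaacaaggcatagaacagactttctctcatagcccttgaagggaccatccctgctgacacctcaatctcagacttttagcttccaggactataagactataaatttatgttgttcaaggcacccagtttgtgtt
They held 1, 2 and 0 CpGs at a GC content of 39.5%, 31.0% and 43.5%. Windows of 3 of the strongest kept promoter peaks are printed for comparison.
ADAP1 chr7:945226-945425: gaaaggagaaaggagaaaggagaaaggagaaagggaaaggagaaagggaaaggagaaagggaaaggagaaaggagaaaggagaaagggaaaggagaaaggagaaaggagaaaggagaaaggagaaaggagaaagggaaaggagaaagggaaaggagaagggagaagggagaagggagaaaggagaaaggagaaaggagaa
KIAA1217 chr10:23984239-23984438: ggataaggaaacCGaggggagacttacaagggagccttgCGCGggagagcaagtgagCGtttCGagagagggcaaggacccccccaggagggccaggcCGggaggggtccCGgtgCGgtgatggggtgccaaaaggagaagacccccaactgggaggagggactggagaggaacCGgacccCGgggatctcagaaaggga
SLC32A1 chr20:37353480-37353679: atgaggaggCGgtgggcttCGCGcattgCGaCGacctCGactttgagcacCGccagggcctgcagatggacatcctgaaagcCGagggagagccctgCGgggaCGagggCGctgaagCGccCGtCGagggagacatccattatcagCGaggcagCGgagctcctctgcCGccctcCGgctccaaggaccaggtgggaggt
KIAA1217 encodes a cytoskeleton-associated protein and SLC32A1 the vesicular transporter of GABA and glycine. The windows at KIAA1217 and SLC32A1 held 10 and 18 CpGs, while the ADAP1 window was a purine-rich repeat with no CpG.

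Lost peaks were weak and short. Of all autosomal NC peaks, 48.4% had no partner in ΔLINC00641, 45.0% had none in ΔSETD5-AS1 and 32.9% had none in either (Wilson 95% interval 32.5 to 33.2%, which takes peaks as independent and covers counting error only). The share lost in both depended on the definition: it was 11.5% of NC peaks at a minimum −log10 q of 5, and 17.7% when a partner within 1 kb counted. The lost peaks covered 10.7 Mb, or 19.1% of the bases under NC peaks. Their median −log10 q was 3.04 (5th to 95th percentile 1.70 to 5.97) against 4.82 (2.11 to 11.8) in kept peaks. The summit of the median lost peak held 15 fragments, and that of the median kept peak 21. Fold enrichment over input had a median of 3.09 against 3.63. These strength values belong to the same calls as the rule and are given as a description only.

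The median width was 376 bp in lost and 853 bp in kept peaks, a ratio of 0.441 (SD over 22 chromosomes 0.043), and it was below 1 on 22 of 22 chromosomes. The shortest peak in either set had 266 bp, which is about the fragment length. The widest lost peak had 2979 bp, whereas kept peaks reached 18552 bp. A wide peak has more chances to touch a partner, and width rose with strength, so the width difference is in part fixed by the rule. Within 10 equal groups of NC peaks ranked by −log10 q, lost peaks had median widths of 349 to 456 bp and kept peaks of 457 to 1570 bp.

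The share of peaks that were lost fell with strength. It was 52.6% in the weakest 10% of NC peaks, with 13 fragments at the median summit, and 4.41% (325 peaks) in the strongest 10%, with 28 fragments. Peaks just inside and just outside the rule differed little. The 1179 lost peaks with a knockdown peak within 100 bp had a median of 16 fragments, a width of 406 bp and a GC content of 42.2%. The 1698 peaks that escaped the rule by an overlap of at most 100 bp had 16 fragments, 408 bp and 43.3%.

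Lost peaks were poorer in GC than kept peaks. Their median GC content was 43.0% (quartiles 39.3 and 47.3%), against 46.7% (43.4 and 50.3%) in kept peaks and 41.0% over all autosomal bases. The difference of the medians was -3.63 percentage points (SD over chromosomes 1.64). All 22 chromosomes had a negative difference, with the extremes of -8.76 at chromosome 13 and -0.62 at chromosome 19. NC peaks lost in a single knockdown lay between these sets, with medians of 44.6% for ΔLINC00641 and 46.0% for ΔSETD5-AS1. GC content was not used to choose the peaks, but base composition also affects how well a library covers a region, and the part of this in the result was not tested.

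The GC difference was smaller, -1.72 percentage points, when peaks of each list within 1 kb were merged before the comparison. Without merging it was present at every strength. Averaged within the 10 strength groups it was -3.16 percentage points, and it ran from -4.65 in the second weakest group to -1.87 in the third strongest. In 5 equal groups by GC content, 55.5% (54.7 to 56.3%) of the NC peaks with at most 40.6% GC were lost, compared with 22.2% (21.6 to 22.9%) of those above 50.2% GC. The lowest GC group alone supplied 33.8% of all lost peaks. Among the weakest 10% of peaks the lost share fell from 74.7% at lowest to 38.0% at highest GC, and among the strongest 10% from 12.9% to 2.64%. Most of the fall lay between the lowest GC group and the next, while the 3 groups with the highest GC content differed less.

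**Figure D1:**
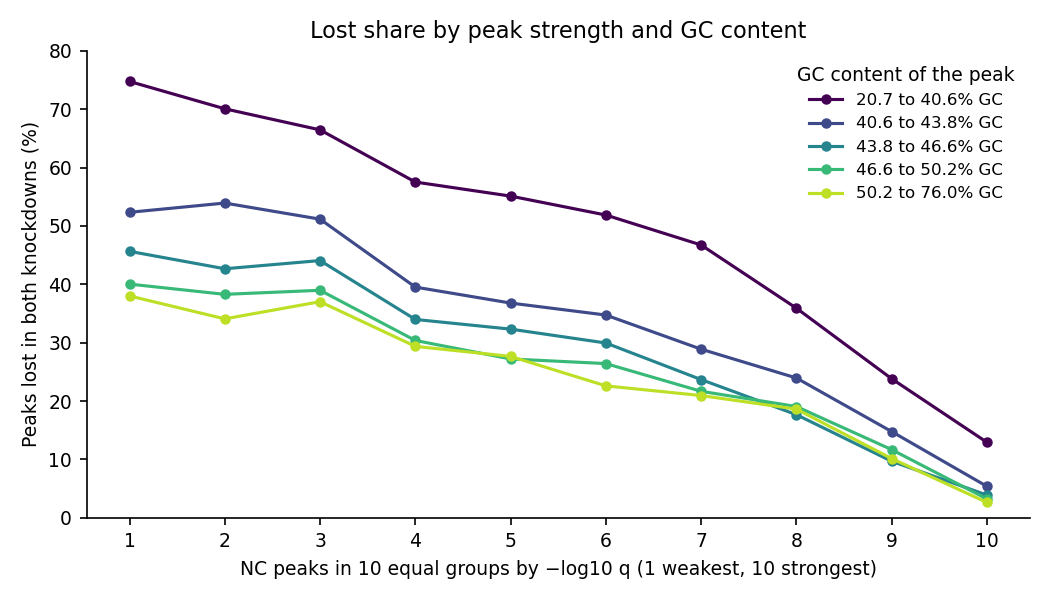
Share of NC H3K27me3 peaks on chromosomes 1 to 22 lost in both knockdowns (%), by strength group (x axis, −log10 q) and by GC group (1 line each, points are single values of the pooled lists). The line of the lowest GC content lies above the others in each of the 10 strength groups, from 74.7% to 12.9%.

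The surroundings of the peaks showed the same order. Over 10 kb around the summit, the median GC content was 39.1% for lost and 42.2% for kept peaks. CpG dinucleotides, the sites of DNA methylation, numbered 0.741 per 100 bases in the median lost peak and 1.09 in the median kept peak. Over all autosomal bases the mean was 0.997, which is not a median over windows of peak size and so not a like measure. The observed over expected CpG ratio was 0.173 and 0.209, so both sets were CpG-depleted in the median. Peaks with a GC content above 50% and a CpG ratio above 0.6, a common description of a CpG island, made up 1.16% (280) of lost and 2.23% (649) of kept peaks.

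Each knockdown list was asked the same question in turn, to see whether peaks private to a list are always GC-poor. Private peaks made up 21.4% (12612) of the ΔLINC00641 list and 28.4% (19547) of the ΔSETD5-AS1 list. They were about as narrow as the lost NC peaks, with median widths of 363 and 364 bp. In ΔLINC00641 private peaks had a median GC content of 46.8%, a difference of -0.51 percentage points (SD 1.62) from peaks in all lists. This difference was smaller than its spread over chromosomes and turned positive under 3 alternatives (0.88 for −log10 q of at least 5, 0.67 for a partner within 1 kb and 0.85 for merged peaks). In ΔSETD5-AS1 the private peaks had a median of 45.2%, a difference of -1.97 (SD 1.73) with a lower value on 21 of 22 chromosomes. Narrow, weak peaks were thus private to each list, and the GC difference was largest for NC. The lists differ in size and depth, and they share partners, so these values are not independent of each other. Whole lists differed in GC content as well. The NC list had the lowest median of the H3K27me3 lists, 45.2%, below 46.3% for the SETD5-AS1 ASO and 47.1% for the LINC00641 ASO. For H3K9me3 the NC list was again the lower one, at 47.5% against 50.3% for LINC00662. Whether the GC difference of lost peaks goes beyond this shift between whole lists was not tested.

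**Figure D2:**
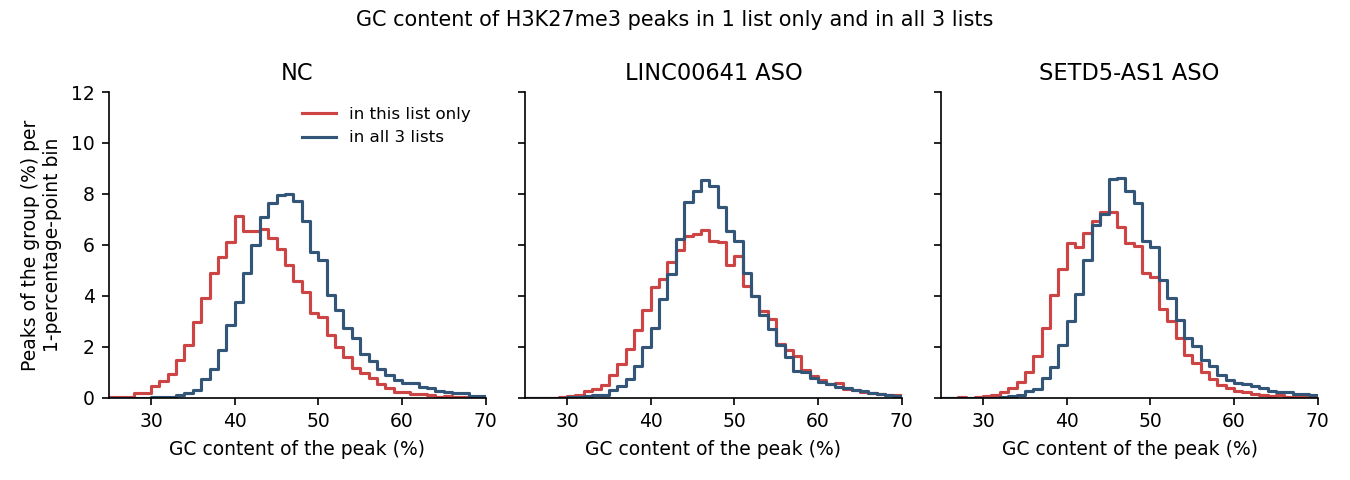
GC content of autosomal H3K27me3 peaks (x axis, %; y axis, % of the group per bin of 1 percentage point) found in 1 list only (red) and in all lists (blue), for NC, LINC00641 ASO and SETD5-AS1 ASO. The red curve of NC is shifted to the left, with medians of 43.0 and 46.7%, whereas the curves of LINC00641 lie close together, with medians of 46.8 and 47.3%.

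Many lost peaks had a knockdown peak nearby. The median distance from a lost peak to the nearest peak of either knockdown was 1154 bp. Such a peak lay within 1 kb of 46.0% of lost peaks, within 10 kb of 88.1% and within 100 kb of 98.1%. Peaks of ΔSETD5-AS1 were nearer than those of ΔLINC00641, at medians of 1745 and 2230 bp, and the ΔSETD5-AS1 list was also the longer of the pair. For 2889 lost peaks (11.9%) no knockdown peak lay within 10 kb, and for 471 (1.95%) none lay within 100 kb.

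Lost peaks also stood more alone among NC peaks. Their nearest other NC peak was at a median of 1480 bp, compared with 517 bp for kept peaks. No other NC peak lay within 10 kb of 14.7% of lost and 3.01% of kept peaks, a difference of 11.7 percentage points (SD over chromosomes 4.60) that was positive on 22 of 22 chromosomes. When NC peaks at most 10 kb apart were joined into clusters, 62.3% of the 5719 single peaks were lost. In clusters of 2 to 4, 5 to 19 and 20 or more peaks, 47.1%, 37.3% and 22.2% of peaks were lost. Strength rose in the same order, with median −log10 q of 3.03 for single peaks and 3.21, 3.58 and 4.05 in these clusters. A large cluster can lose every peak only if many are lost together, so the next counts follow in part from cluster size. Few large clusters lost every peak: 25 of 2135 clusters of 5 to 19 peaks and 0 of 675 clusters of 20 or more did. Even so, 35.1% of all lost peaks came from clusters of 20 or more. In clusters of at least 3 peaks the outermost peaks were lost in 44.2% and the inner ones in 26.4%, with median −log10 q of 3.21 and 3.72.

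**Figure D3:**
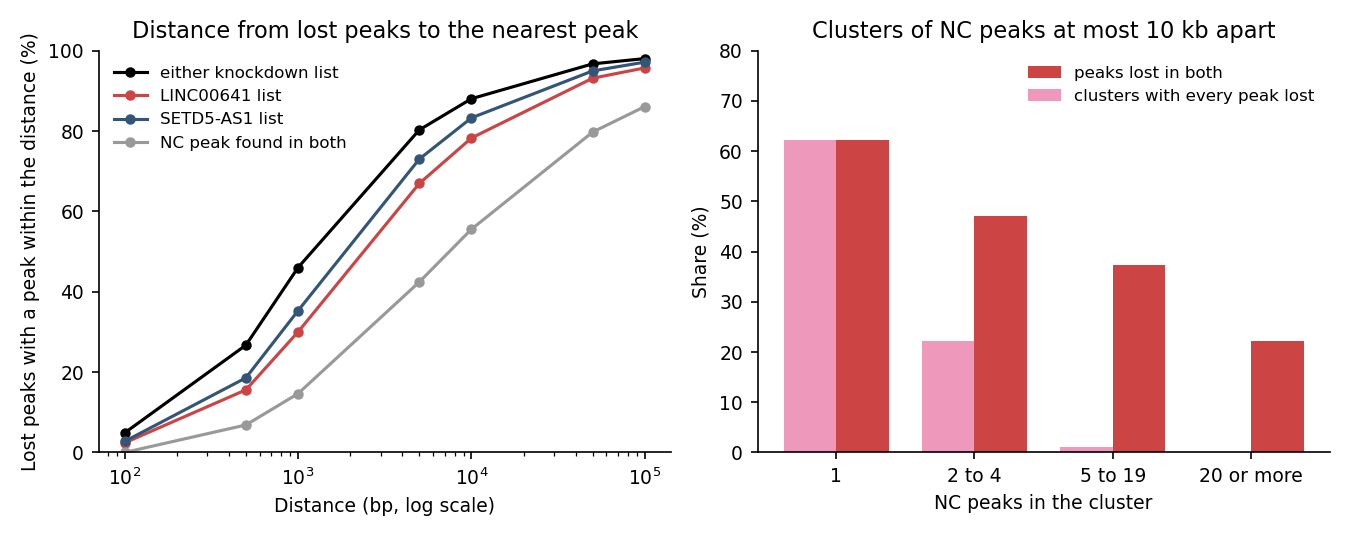
Left, share of the 24204 lost peaks (%) with a peak of the named list within a distance (bp, log axis); 46.0% had a peak of either knockdown within 1 kb and 14.6% had a kept NC peak within 1 kb. Right, share (%) of peaks lost and of clusters with every peak lost, by the number of NC peaks in the cluster; the share of lost peaks falls from 62.3% for single peaks to 22.2% in clusters of 20 or more.

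The largest cluster in which every peak was lost had 8 peaks at chr7:126537069-126562972, with a highest −log10 q of 4.26 and a knockdown peak 1020 bp away. Next came 7 peaks at chr10:42887734-42927856, with a knockdown peak 175 bp away. Most of the 4493 clusters lost entirely were single peaks (3563), while 905 had 2 to 4 peaks and 25 had 5 to 19. Of the 4493, single peaks included, 2229 had no knockdown peak within 10 kb.

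Lost peaks were spread over all autosomes. The lost share ranged from 25.3% on chromosomes 19 and 22 to 58.5% (52.9 to 63.8%) on chromosome 13, with an SD of 9.06 percentage points. Chromosomes 18 and 21 followed with 47.5% and 47.9%. These 3 chromosomes held few NC peaks, 313, 491 and 484. Per megabase, chromosome 16 had the most lost peaks (18.8), followed by chromosome 5 (18.3), and chromosome 13 the fewest (1.59). Chromosomes 22 and 19, which had the lowest lost shares, held 1391 and 1821 NC peaks, and chromosome 2, with 7144, lost 38.5%.

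**Figure D4:**
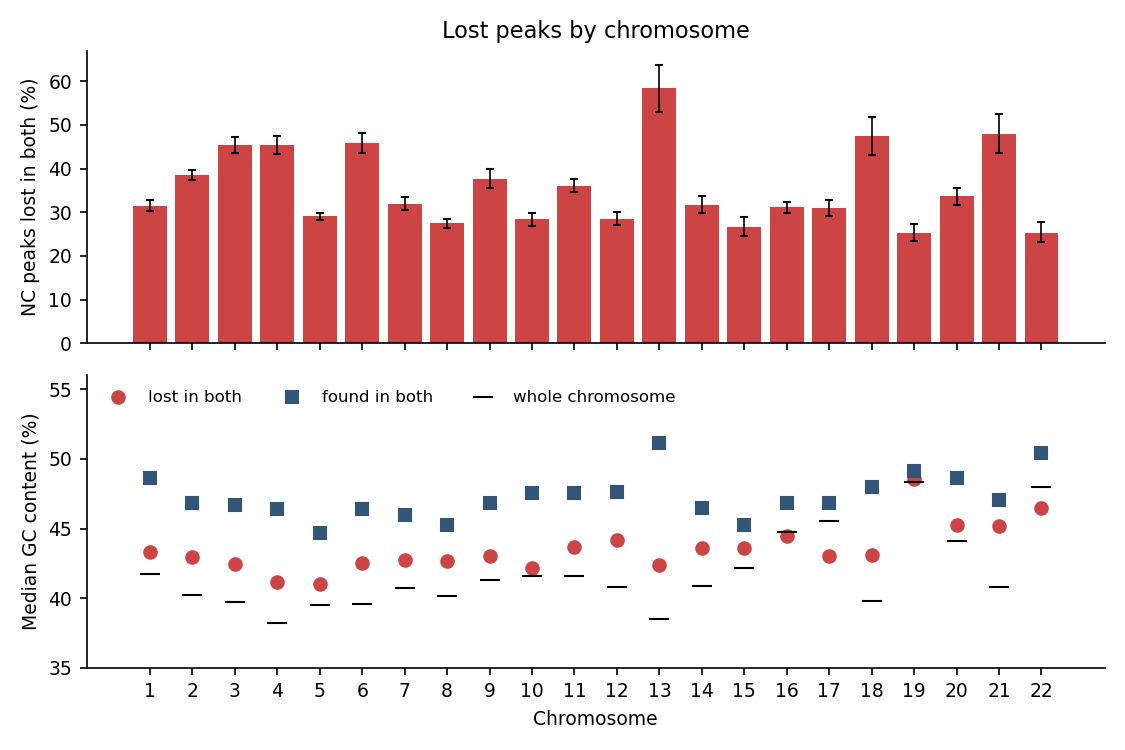
Top, share of NC peaks lost in both knockdowns (%) by chromosome, with Wilson 95% intervals for counting error only. Bottom, median GC content (%) of lost peaks (circles), kept peaks (squares) and the GC content of the whole chromosome (dashes); the circle lies below the square on 22 of 22 chromosomes.

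At the megabase scale, lost peaks fell in 1667 of 2897 blocks of 1 Mb. The densest 289 blocks held 66.6% of lost peaks when ranked by lost peaks, and 73.4% of all NC peaks when ranked by NC peaks. In the 595 blocks with at least 20 NC peaks, the lost share ranged from 0 to 81.0% with a median of 36.8%. It was 48.8% in the fifth of these blocks with the lowest GC content (34.3 to 37.6%) and 18.5% in the fifth with the highest (44.3 to 58.2%). Across the 595 blocks, Spearman's rho of the lost share was -0.70 with block GC content and -0.45 with the number of NC peaks. Blocks share the same pooled libraries, so this is a description. The most lost peaks lay at chr16:6000001-7000000 (136 of 374 NC peaks), chr5:165000001-166000000 (130 of 339) and chr17:50000001-51000000 (130 of 304). At these blocks the knockdown lists held 290, 204 and 157 peaks in ΔLINC00641 and 243, 257 and 196 in ΔSETD5-AS1, so the mark was still called there after both knockdowns.

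Lost peaks lay less often at promoters. A summit within 1 kb of any annotated transcription start site was found in 4.54% (1099; 4.29 to 4.81%) of lost and 8.72% (2534; 8.40 to 9.05%) of kept peaks, and such windows make up 7.67% of autosomal bases. The difference was -4.18 percentage points (SD over chromosomes 5.73), negative on 22 of 22 chromosomes. Within strength groups it averaged -2.96, and within 5 GC groups, an alternative added after the data had been seen, -2.62. Intergenic DNA held 45.2% (44.6 to 45.9%) of lost and 41.6% (41.0 to 42.2%) of kept summits, introns 48.2% and 47.0%, and exons 2.06% and 2.72%. Protein-coding genes longer than 500 kb held 14.8% and 16.1%. Lost peaks thus lay less often at promoters and exons and more often between genes.

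H3K9me3 was measured in separate libraries and was not used to choose the peaks. An H3K9me3 peak of its own NC list overlapped 5.41% (1309; 5.13 to 5.70%) of lost and 14.6% (4254; 14.2 to 15.0%) of kept H3K27me3 peaks. The difference was -9.23 percentage points (SD 5.05) and was negative on 21 of 22 chromosomes. Narrow peaks overlap less by their size, and strength differed too: within strength groups the difference averaged -6.93, with 5.58% against 11.3% in the weakest and 11.1% against 22.1% in the strongest group. In the LINC00662 list the shares were 4.73% and 14.7%.

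The genes with the most lost peaks were long genes, several of them neuronal, that held many H3K27me3 peaks in all. RBFOX1, a neuronal splicing regulator of 2474 kb, had 259 lost peaks among 951 NC peaks in its body (27.2%, interval 24.5 to 30.2%). It still held 784 peaks in ΔLINC00641 and 740 in ΔSETD5-AS1. DPP10, an auxiliary subunit of potassium channels, had 172 of 423 lost, and CSMD1, which encodes a large complement-related membrane protein, 161 of 446. PTPRT, a receptor tyrosine phosphatase gene, had 115 of 385. The lost share at these genes lay on both sides of the 32.9% over all NC peaks.

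The highest share among the genes with most lost peaks was at GRM7, a metabotropic glutamate receptor gene, with 97 of 177 (54.8%, interval 47.4 to 62.0%), where 31 NC peaks were kept. The lowest was at TENM2, a teneurin of synaptic adhesion, with 91 of 523 (17.4%, 14.4 to 20.9%). NRXN3, a presynaptic adhesion gene, had 92 of 325. AGBL4, OPCML and THSD7B had 89 each, of 211, 400 and 199. OPCML encodes a cell adhesion protein of the IgLON family and AGBL4 a cytosolic carboxypeptidase. None of these genes was emptied of the mark: each kept at least 31 NC peaks. Of 2212 protein-coding genes with an NC summit in the body, 1243 held a lost peak.

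**Figure D5:**
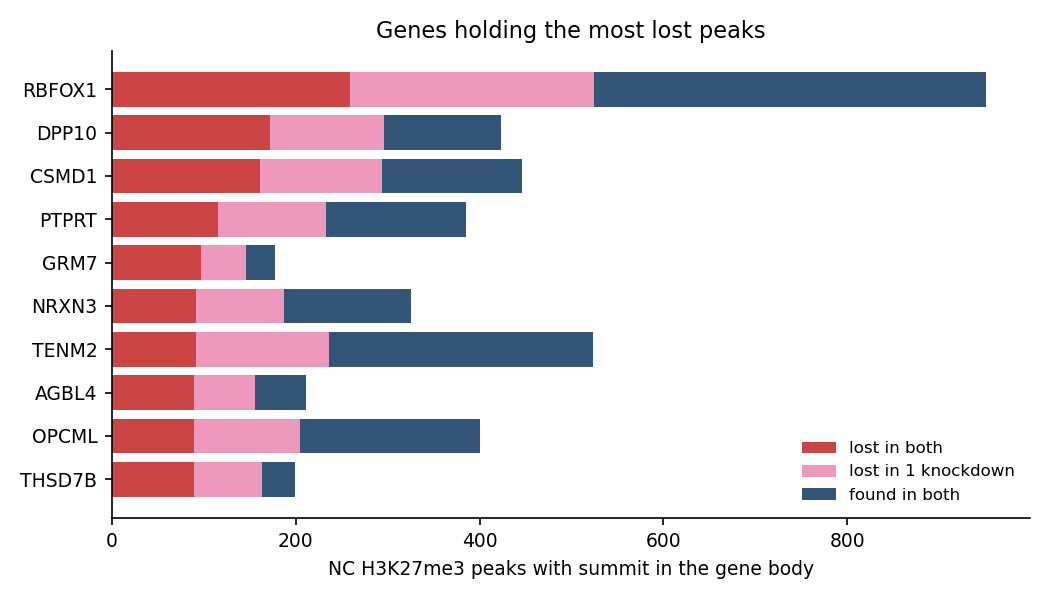
Number of NC H3K27me3 peaks with the summit in the gene body (x axis) for the genes with the most lost peaks, split into lost in both knockdowns (red), lost in 1 (pink) and found in both (blue). RBFOX1 has 259 lost peaks among 951, and GRM7 has the largest red share, 97 of 177.

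At protein-coding promoters, 394 lost peaks lay near the start sites of 362 genes. Of the 1516 genes with an NC promoter peak, 220 (14.5%) had lost peaks only. In 73 of these 220 a knockdown list still held another peak in the promoter window, which left 147 genes with no promoter peak in either knockdown. Kept peaks were found at 1041 genes.

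Of the 10 strongest promoter losses, 6 had a peak of each knockdown within 1 kb. At FBLL1, which encodes a fibrillarin-like methyltransferase, the lost peak (chr5:167955541-167956304) had 42 fragments and a fold enrichment of 4.12, and knockdown peaks of 27 and 33 fragments lay 492 bp away in ΔLINC00641 and 568 bp away in ΔSETD5-AS1. At PCSK1, a prohormone convertase gene, the lost peak (chr5:95770079-95771274) had 23 fragments, and stronger knockdown peaks of 58 and 55 fragments lay 439 and 668 bp away. ADAMTSL3, SNTG1 and SGPP2 also had peaks of both knockdowns within 800 bp. SNTG1 encodes a syntrophin, and ADAMTSL3 an extracellular matrix protein. RGMA, a repulsive axon guidance gene, had them at 1935 and 1932 bp.

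3 other promoters differed from this. At SOCS3, an inhibitor of cytokine signalling, the lost peak (chr17:76355567-76355939) had 35 fragments, a fold enrichment of 3.46 and a GC content of 70.2%, and the nearest knockdown peaks were 442109 and 401974 bp away. The next NC peak was equally far, at 442186 bp, so this was an isolated peak. At EPB41L4A, a band 4.1 family gene, a ΔSETD5-AS1 peak lay at 343 bp but the nearest ΔLINC00641 peak at 298610 bp. At OR10A6 a ΔSETD5-AS1 peak lay at 252 bp and a ΔLINC00641 peak at 3441 bp. With 1 pooled value a group, the SOCS3 peak carries counting error and no replicate check.

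Gene lists differed in how many promoters had lost peaks only. HOX genes, the best known Polycomb targets, had no promoter peak in NC (0 of 39), and neither had ribosomal protein genes (0 of 77). Homeobox factors outside the HOX clusters had an NC promoter peak at 16 of 100 genes, and none of the 16 had lost peaks only. Potassium channels and neurotransmitter receptors had the highest share with a peak (79 of 179), of which 1 had lost peaks only, HTR1F, a serotonin receptor gene. Axon guidance and synaptic adhesion genes had 36 of 109, and 2 had lost peaks only, the semaphorin receptor gene PLXNB1 and the teneurin gene TENM4. Both lost peaks were weak, with −log10 q of 1.99 and 1.62, and a ΔLINC00641 peak lay 88 bp from that of TENM4. These counts stand beside the 14.5% over all genes with an NC promoter peak, and the lists are small.

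The largest numbers of such genes came from olfactory receptor and zinc finger genes. Of 99 olfactory receptor genes with an NC promoter peak, 28 (28.3%) had lost peaks only, OR10A6, OR10G8, OR13C5 and OR51A2 being the strongest. Of 12 zinc finger genes of the ZNF series with an NC promoter peak, 7 had lost peaks only, among them ZNF415, ZNF93, ZNF679 and ZNF677. In total the lists held 92 and 103 olfactory genes with a promoter peak in ΔLINC00641 and ΔSETD5-AS1, and 13 and 7 zinc finger genes, compared with 99 and 12 in NC. Cadherins and protocadherins had 3 of 13 (23.1%; PCDHGA5, PCDHGA7 and PCDHB6), all in the clusters of chromosome 5, whose members resemble each other in sequence.

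Of 21 genes of WNT, FGF, BMP and hedgehog signals with an NC promoter peak, 4 had lost peaks only, and all 4 encode WNT ligands. With so few genes, this share cannot be set apart from the 14.5% over all genes. A promoter peak was also called at 21 genes of these signals in ΔLINC00641 and at 21 in ΔSETD5-AS1, so their number did not fall. The summits of the lost WNT peaks held 32 fragments at WNT11, 25 at WNT4, 33 at WNT5B and 21 at WNT1. The WNT1 peak was the weakest of them, with −log10 q of 1.78. Local input was lowest at WNT4, 1.92 times the genome-wide level. Knockdown peaks lay 1351 and 1337 bp from the WNT5B peak but at least 365636 bp from the WNT1 peak and 519122 bp from the WNT11 peak. Among bHLH factors 2 of 13 (15.4%) had lost peaks only, OLIG3 and BHLHE23, and among SOX, T-box, GATA and forkhead factors 1 of 7 (14.3%), FOXI3, which is near the share over all genes. Peaks were called in NC at 2 of 25 genes of Polycomb subunits, and 1 of these, CBX8, held a lost peak of 43 fragments, with larger knockdown peaks of 81 and 61 fragments 300 and 362 bp away. PGBD5, a transposase-derived gene, had 1 promoter peak in NC, which was kept in both knockdowns. Summits held 37 fragments in NC and ΔLINC00641 and 27 in ΔSETD5-AS1, at fold enrichments of 3.19, 3.51 and 2.91. The paper reported a lower H3K27me3 signal around this promoter after both depletions. That was a measure of ChIP-seq signal, whereas a kept peak means only that peak calls overlapped.

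The strongest lost peaks of all, with a local input at most 2 times the genome-wide level, were intergenic or intronic. The first was at chr8:43092851-43093232, with 56 fragments and a GC content of 20.7%, the lowest of all autosomal NC peaks. No NC peak lay within 74397 bp of it and no knockdown peak within 86437 bp. The others lay at chr22:16867042-16867423 (38 fragments), chr9:69788147-69789133 (35), chr16:33846926-33847761 (39), chr5:12964364-12965082 (32) and chr8:127263318-127263800 (31). All of these had an NC peak within 6247 bp. The chr22 peak had knockdown peaks of 23 and 24 fragments 924 and 911 bp away, and that on chromosome 5 had peaks of 15 and 15 fragments 4229 and 4185 bp away. Strong losses were thus found both alone and among other peaks. Repeats and mappability were not annotated, so whether reads at these peaks or at the printed sequences map to several places was not tested.

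The 3 widest lost peaks were at chr1:5430593-5433571 (2979 bp), chr8:55825228-55827575 (2348 bp) and chr4:190263382-190265718 (2337 bp). All were intergenic and had summits of 20 to 22 fragments. Knockdown peaks lay between 707 and 1548 bp from each of them. Of the 325 lost peaks in the strongest 10% of NC peaks, 57.8% had a knockdown peak within 1 kb, and the median distance was 774 bp. Their median GC content was 44.4%, against 47.4% for the 6205 kept peaks of that group, and 4.62% against 15.7% lay at promoters. These strong lost peaks therefore differed from kept peaks in the same directions as lost peaks in general.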

How the data were processed

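H3K27me3 and H3K9me3 ChIP-seq of HEK293T cells gave 30 samples in 10 groups of 3 replicates, which were grouped by title. Per the study's methods and processing notes, reads were trimmed with cutadapt 3.3, checked with FastQC 0.11.8, aligned to hg19 with Bowtie2 2.4.2 and freed of duplicates with GATK. The authors merged the replicates of each group and called peaks with MACS2 2.2.7.1 on paired-end fragments, using the merged input as background. The deposited fold enrichment is a ratio of summit fragments to local input, each with a pseudocount. The authors also deposited −log10 p-values and −log10 q-values for each peak. Merging leaves a single list for each group, so neighbouring calls that move by more than their width count as lost, and weak peaks near the threshold can drop out.

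The number of fragments at each summit was solved from fold enrichment and p-value. It came out whole (within 0.1) for 99.89% of peaks in the H3K9me3 LINC00662 list, the lowest share among the 5 lists. The lowest local input, the genome-wide level, was 3.85 fragments in NC, 3.78 after LINC00641 and 4.43 after SETD5-AS1 knockdown. Peaks were compared by an overlap of 1 bp. GENCODE 44, lifted to GRCh37, was used to annotate summits, and GC content was taken from the GRCh37 sequence, which has hg19 coordinates. Spread is the SD over chromosomes 1 to 22, and shares have Wilson 95% intervals. The regions named were the 6 strongest lost peaks (input at most 2 times the genome-wide level), the 3 widest, the 10 strongest at protein-coding promoters, the 8 genes with most lost peaks and those tied with the last, the 3 blocks of 1 Mb with most, PGBD5, and up to 4 genes for each of 12 gene lists whose promoter held a lost and no kept peak. Sequences were printed for the 3 strongest promoter members, members outside promoters and kept promoter peaks (input at most 2 times the genome-wide level) after those on chromosome 8 or in untranslated regions had been passed over, and 1 selected promoter sequence is not reported here. The members and the lists were chosen with earlier results of these data known. The alternatives tried were a minimum −log10 q of 5, 50% overlap, a partner within 1 kb, merging within 1 kb, leaving out peaks with input over 5 times the genome-wide level, the 58801 strongest peaks of each list, promoters of 2 kb, and averaging within strength groups. Python 3.11.15, numpy 2.4.6, pandas 2.3.3 and scipy 1.17.1 were used, and the functions were tested on simulated data.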

Additional observations from a re-analysis of the deposited data

How the results depend on the processing

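The 11 results were recomputed under 72 alternatives in all, 3 of which were added after the data had been seen. In 44 the value stayed within the spread over chromosomes or the Wilson interval. That spread is a loose measure where the SD exceeds the size of the value itself. This held for the promoter difference (SD 5.73, value -4.18) and the private GC difference of ΔLINC00641 (SD 1.62, value -0.51). For these, staying within the spread says little about stability. The share of NC peaks lost in both (32.9%) was 11.5% at a minimum −log10 q of 5, 46.0% when 50% of the peak had to be covered, 17.7% with a partner within 1 kb, 34.9% with merged peaks and 30.3% with equal numbers. In the same order, the private share of ΔLINC00641 was 6.12, 32.0, 10.6, 23.7 and 26.3%, and that of ΔSETD5-AS1 over the first 4 was 9.64, 39.2, 16.0 and 31.9%. The width ratio was 0.345, 0.547, 0.554 and 0.194. The share of lost peaks with a knockdown peak within 1 kb was 54.1% at −log10 q of at least 5, 61.4% at 50% and 29.9% with merged peaks. The isolation difference was 6.50 at −log10 q of at least 5 and 20.5 with a partner within 1 kb. With merged peaks the GC difference was -1.72 and the H3K9me3 difference -15.2 percentage points. The GC difference of peaks private to ΔLINC00641 was reversed at −log10 q of at least 5 (0.88), with a partner within 1 kb (0.67) and with merged peaks (0.85). No other difference changed sign. Why these values moved was not tested. No paired analysis was possible because replicates were merged before peak calling, and for the same reason leaving out a replicate was not run. Summits of 15 fragments in the median limit what a single lost peak can show.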

Other observations

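The rule was limited to autosomes. On chromosome X, 7547 of 28731 NC peaks (26.3%, Wilson 95% interval 25.8 to 26.8%) overlapped no peak of either knockdown, which is near the lower end of the autosomes. Lost peaks there had a median width of 378 bp and kept peaks of 780 bp.

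The local input under lost peaks was low. It stood at its lowest value, taken as the genome-wide level, for 62.9% of lost and 29.6% of kept peaks. This value is a floor, so a local input below it would not be seen. The input exceeded 2 times the genome-wide level for 2.13% and 10.1%. Peaks private to ΔLINC00641 and ΔSETD5-AS1 were at that level in 43.5% and 51.9%.

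Among the H3K27me3 NC peaks that overlapped an H3K9me3 NC peak, 41.0% of the 1309 lost and 46.7% of the 4254 kept peaks also overlapped a peak of the LINC00662 H3K9me3 list.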
